A study of Mus musculus with 8 samples.

Results

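The Serpin family, the largest family of protease inhibitors in mammals, was followed across 8 oligonucleotide arrays of a mouse hepatocyte line. Members were all probe sets that name a single gene whose symbol on the platform starts with Serpin. There were 56 such probe sets for 40 genes, out of 45037 probe sets and 18192 named genes on the arrays. A further 3 probe sets name several Serpin genes at once and are described separately. Serpin genes without such a probe set were not analysed here.

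The groups were v-erbA-transfected AML12 cells with 1 µM retinoic acid (RA), v-erbA-transfected AML12 cells without RA, AML12 cells with 1 µM RA and AML12 cells without RA, each sampled at 24 h and at 3 h with 1 array per combination. AML12 is a non-tumorigenic line of hepatocytes established from mice that carry a human TGF-alpha transgene, and both lines share that background. v-erbA is a viral, mutated form of the thyroid hormone receptor. The labels give neither the promoter that drives v-erbA nor the number of clones, and v-erbA itself was not measured here, so the effect of v-erbA cannot be told apart from that of transfection or of the particular line. The 24 h and 3 h arrays likewise cannot be told apart from any batch of culture or hybridisation, and 3 of the 4 samples titled 24 h carry a description that names 3 h; the titles were followed.

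No combination was replicated, so the spread behind each standard error (SE) and adjusted p is the departure of the 8 arrays from a model that adds line, treatment and time, and it may be technical. Array medians lay between 71.2 and 76.1 units. Of 10 hepatocyte markers, 8 exceeded the pooled median of 73.5 units on all 8 arrays, including Alb and Hnf4a, and their summed signal was 27127 to 30986 units in v-erbA cells and 37659 to 50775 units in AML12 cells. Biliary and progenitor, keratinocyte, macrophage, endothelial and fibroblast lists had 4 of 4, 2 of 5, 2 of 5, 0 of 4 and 1 of 7 members above the median on all arrays. The summed macrophage signal was 2107 to 2939 units in v-erbA cells and 3347 to 5445 units in AML12 cells. The biliary and progenitor sum was 2265 to 3209 units in v-erbA cells and 3124 to 4916 units in AML12 cells. The keratinocyte sum went the other way with overlap, at 739 to 1230 units in v-erbA cells and 457 to 920 units in AML12 cells. Endothelial and fibroblast sums of AML12 cells lay within the range of v-erbA cells. The part of these cell types in the results was not tested. In the macrophage, endothelial and fibroblast lists, Ptprc, Clec4f, Pecam1, Cdh5, Col3a1, Lum and Pdgfrb lay below the pooled median on every array. In a culture, fewer cells of a kind and less RNA per cell cannot be told apart.

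A serpin inhibits a protease by offering a loop as bait; once the protease cuts it, the serpin folds over and traps the enzyme in a covalent complex. Clade A, C, D, F and G members are mostly secreted, and the liver is their main source in plasma: antitrypsin, antithrombin, antiplasmin and C1 inhibitor among them. Clade B members lack a classical secretion signal and protect cells from their own or from incoming proteases, such as granzymes and cathepsins. A few members carry hormones or chaperone collagen in place of inhibiting a protease.

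Mice carry a cluster of antitrypsin genes, Serpina1a to Serpina1f, where humans carry a single inhibitory copy. Only promoter sequences of these paralogs were compared here. Transcript and probe sequences were not, so binding of a probe set to several paralogs was not tested. A stretch at or just before the start of transcription is shown for the 5 closest paralogs and for Serpina7 (RefSeq, GRCm38.p6, each printed on the gene's strand, the minus strand). Serpina7, another clade A gene, is shown because it was higher in the v-erbA line and has the motif marked below. A link between motif and change was not tested and cannot be read from that choice. Capitals mark GTTAAT, the core of the half-site of the hepatocyte factor HNF1, as found by a search of both strands.
Serpina1a, chr12:103863595-103863680: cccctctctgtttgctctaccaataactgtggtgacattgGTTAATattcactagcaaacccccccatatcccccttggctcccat
Serpina1b, chr12:103738170-103738255: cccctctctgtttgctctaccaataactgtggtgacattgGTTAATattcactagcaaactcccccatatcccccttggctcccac
Serpina1c, chr12:103904932-103905017: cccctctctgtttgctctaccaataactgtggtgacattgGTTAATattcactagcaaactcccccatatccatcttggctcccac
Serpina1d, chr12:103773604-103773689: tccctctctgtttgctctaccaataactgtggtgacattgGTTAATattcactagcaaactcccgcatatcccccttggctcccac
Serpina1e, chr12:103956930-103957015: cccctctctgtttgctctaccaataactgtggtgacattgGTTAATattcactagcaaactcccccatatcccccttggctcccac
Serpina7, chrX:139085248-139085333: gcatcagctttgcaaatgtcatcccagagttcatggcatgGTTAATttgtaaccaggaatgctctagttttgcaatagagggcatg

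The Serpina1e stretch matched that of Serpina1b at 86 of 86 bases, those of Serpina1a, Serpina1c and Serpina1d matched it at 84, and that of Serpina7 at 28. Over the whole promoter entries, aligned bases of Serpina1a to Serpina1e were 91.7% to 98.4% identical in pairs, against 53.8% to 56.8% between each of them and Serpina1f. GTTAAT occurred in 7.10% of 32851 promoter entries of the same length, of which a gene can have several. It occurred in an entry of 4 of the 16 tested members that have any: Serpina1b, Serpina1c, Serpina7 and Serpinb8. A share of entries and a count of genes are not on the same footing. The Serpina1b and Serpina1c entries are also near copies of each other, so their matches are not separate cases. Serpinb8 was lower with v-erbA, and Serpina11, a clade A gene that was higher, had no match. The matches describe the letters and show no binding.

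The second promoter shown is that of Serpinf1, the member with the largest fall in the v-erbA line. Half-sites of the form AGGTCA are bound by v-erbA, thyroid hormone receptors and RA receptors. Whether such a site has a part in the fall was not tested. Capitals mark that motif, or its reverse complement TGACCT.
Serpinf1, chr11:75422574-75422873, minus strand: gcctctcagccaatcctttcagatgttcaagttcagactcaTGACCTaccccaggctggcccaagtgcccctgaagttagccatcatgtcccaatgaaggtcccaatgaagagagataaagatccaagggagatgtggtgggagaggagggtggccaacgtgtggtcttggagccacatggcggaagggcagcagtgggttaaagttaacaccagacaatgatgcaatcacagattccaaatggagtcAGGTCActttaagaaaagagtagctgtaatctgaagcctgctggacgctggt
AGGTCA occurred on either strand in 16.3% of the 32851 promoter entries and in an entry of 5 of the 16 tested members that have any. Those were Serpina11, Serpinb6e, Serpind1, Serpinf1 and Serpinf2. With v-erbA, Serpina11 and Serpinb6e were higher, Serpinf1 was lower, and Serpind1 and Serpinf2 did not pass. A match of letters shows no binding. Serpinb6b, the member that passed the test for RA below, had no match in this window.

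Genes entered the tests where the brightest probe set exceeded the pooled median on 2 or more of the 8 arrays, which left 18 of the 40 Serpin genes among 11997 genes in all. The other 22 were dim: 30 of their 31 probe sets never exceeded the median, and their signals lay between 0 and 76.2 units. The dim genes were the antitrypsin paralog Serpina1f, the antichymotrypsin paralogs Serpina3a, Serpina3i and Serpina3n, the protein C inhibitor Serpina5, the corticosteroid carrier Serpina6, Serpina4-ps1, Serpina9, Serpina12, Serpini2 and 12 of the 18 clade B genes. Those 12 were Serpinb1a, Serpinb1b, Serpinb2, Serpinb3a, Serpinb5, Serpinb6c, Serpinb7, Serpinb9c, Serpinb9d, Serpinb9g, Serpinb11 and Serpinb12. For Serpina10 2 of the 4 AML12 arrays exceeded the median, and for Serpina7 1 did. Serpina7 thus passed the filter only with its v-erbA arrays.

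Antitrypsin transcripts were more abundant in the v-erbA line. In the Serpina1b probe set that stands for the gene, RA-treated and untreated v-erbA cells gave 4275 and 5325 units at 24 h, against 977 and 1768 units in AML12 cells. At 3 h the same order of arrays gave 3326 and 3115 units in v-erbA cells, against 867 and 779 units in AML12 cells. Every v-erbA array lay above every AML12 array, and within each line the untreated 24 h array was the highest of the 4.

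Serpina1b was 3.72-fold higher in v-erbA than in AML12 cells, a log2 change of 1.89 ± 0.14 (SE, 4 arrays each, limma adjusted p = 6.1e-06 over all genes), higher in 4 of 4 matched pairs. Changes are on the scale log2(signal + 19.9), which understates those of dim genes. The other Serpina1b probe set gave 4026 and 5151 units in RA-treated and untreated v-erbA cells at 24 h, against 1048 and 1778 units in AML12 cells. The 3 h arrays gave 3153 and 2934 units in v-erbA cells, against 878 and 802 units in AML12 cells, the same order of all groups. Both are of the kind, marked x on the platform, whose probes may also bind other transcripts.

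Serpina1c had a probe set of the kind without such a mark. It gave 989 and 1961 units in RA-treated and untreated v-erbA cells at 24 h, against 150 and 688 units in AML12 cells. At 3 h signals were 711 and 620 units in v-erbA cells, against 183 and 207 units in AML12 cells. The groups overlapped here, since untreated AML12 cells at 24 h exceeded untreated v-erbA cells at 3 h, while each of the 4 matched pairs was higher with v-erbA. Serpina1c differed between the lines by 1.85 ± 0.29 on the log2 scale (limma adjusted p = 0.00068).

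Serpina1a, Serpina1d and Serpina1e were read here through shared probe sets alone, so their levels could not be assigned to single paralogs. The probe set that names Serpina1d and Serpina1a gave 5789 and 7353 units in RA-treated and untreated v-erbA cells at 24 h, against 969 and 1970 units in AML12 cells. Its 3 h signals were 4949 and 4779 units in v-erbA cells, against 1076 and 1090 units in AML12 cells. As for Serpina1b, the lines did not overlap and untreated cells at 24 h were the highest of each line.

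The probe set that names Serpina1e, Serpina1c and Serpina1b gave 1032 and 1362 units in RA-treated and untreated v-erbA cells at 24 h, against 55.9 and 225 units in AML12 cells. The values at 3 h were 251 and 230 units in v-erbA cells, against 37.3 and 27.9 units in AML12 cells, the last 2 and RA-treated AML12 cells at 24 h lying under the pooled median. Serpina1f stayed between 44.2 and 76.2 units on the 8 arrays, above the pooled median on 1 of them, and no order was read from it.

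**Figure D1:**
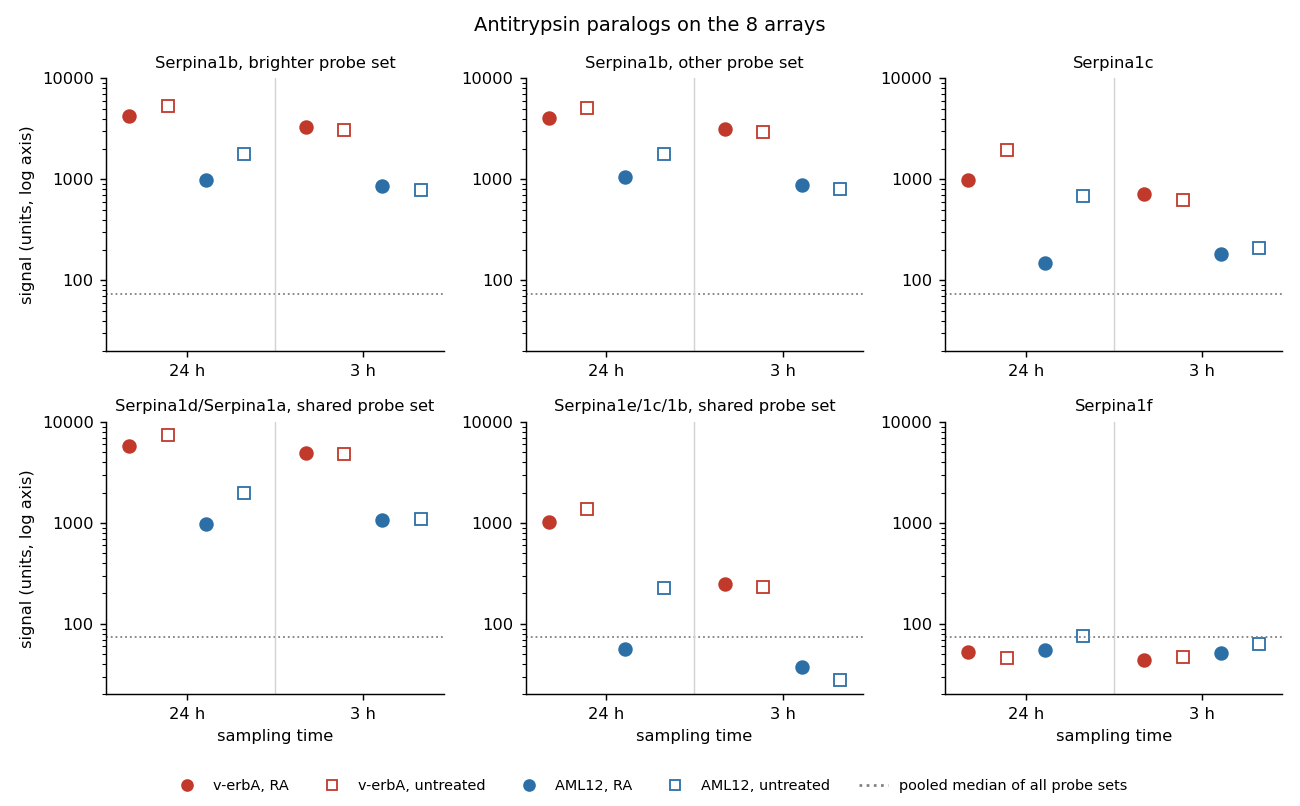
Signal of the 6 probe sets of antitrypsin paralogs on each array, in units on a log axis, at 24 h and 3 h. Red stands for v-erbA cells and blue for AML12 cells, filled circles for RA and open squares for untreated cells, 1 array a point. All but Serpina1f lie higher in red at each time, and Serpina1c in AML12 cells at 24 h is at 150 units with RA and 688 units without.

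Of the 18 tested Serpin genes, 6 were higher and 9 lower in v-erbA than in AML12 cells, and 3 did not pass. Serpina7, among the 6, had entered the tests only with its v-erbA arrays. Over all 11997 tested genes, 26.5% were called higher and 27.0% lower, so that a called gene was common on these arrays. The median change of the tested members was -0.17, against 0.01 over all genes. Of the 15 calls, 10 were retained under each of 18 alternative settings. The other 5 were Serpinb6b, Serpinb8, Serpinc1, Serping1 and Serpinh1, which missed the threshold under 1 to 7 settings and changed by at most 0.57 on the log2 scale.

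**Figure D2:**
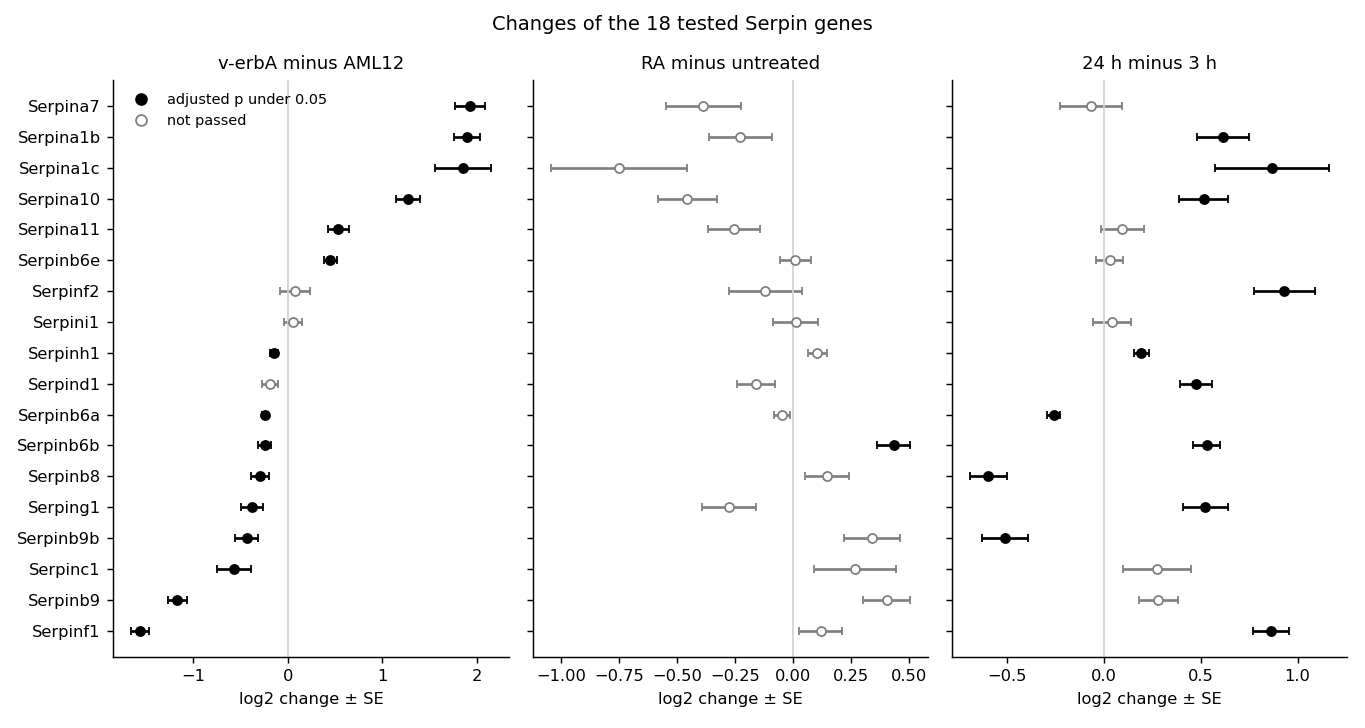
Log2 change ± SE of the 18 tested Serpin genes for v-erbA minus AML12, RA minus untreated and 24 h minus 3 h, over all 8 arrays; the 3 horizontal axes have different ranges. Filled points passed a limma adjusted p of 0.05. Filled points number 15 for v-erbA, 1 for RA (Serpinb6b) and 12 for time.

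Among the inhibitors of clotting, fibrinolysis and complement, 5 of 6 genes were tested. With v-erbA 1 was higher, 2 were lower and 2 did not pass, against 26.5% higher and 27.0% lower over all genes. Serpina10, the protein Z-dependent inhibitor of clotting factor X in its active form, gave 206 and 351 units in RA-treated and untreated v-erbA cells at 24 h, against 68.8 and 132 units in AML12 cells. The 3 h arrays gave 179 and 174 units in v-erbA cells, against 53.8 and 75.2 units in AML12 cells. No v-erbA array reached down to an AML12 array, and the change was 1.27 ± 0.13 (limma adjusted p = 4.4e-05). Its probe set is marked s, for probes that several similar transcripts share.

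Serpinc1, antithrombin, was lower in v-erbA cells by -0.57 ± 0.18 (limma adjusted p = 0.022), and its 4 matched pairs ranged from -1.36 to -0.10. Its signals were 56.4 to 176 units. The pair at -1.36 holds the untreated v-erbA array of 24 h, which lay below the pooled median. The change was -0.90 ± 0.20 at 24 h (limma adjusted p = 0.0084) and -0.23 ± 0.20 at 3 h (adjusted p = 0.40). A test of that difference between times did not pass (adjusted p = 0.55). Without the untreated AML12 array at 24 h, the Serpinc1 change over both times was -0.39 and did not pass (adjusted p = 0.058). Serping1, the C1 inhibitor of complement and of the contact pathway, was lower by -0.37 ± 0.12 (adjusted p = 0.023), a call that 4 of the 8 single omissions of an array ended (adjusted p 0.063 to 0.082). Those omissions were the untreated 24 h and the RA 3 h array of AML12, and the RA 24 h and the untreated 3 h array of v-erbA. Serpind1, heparin cofactor II, differed by -0.19 ± 0.08 (adjusted p = 0.080), and Serpinf2, antiplasmin, by 0.08 ± 0.16 (adjusted p = 0.70). Serpind1 passed without the RA 3 h array of v-erbA (-0.25, adjusted p = 0.040) or the untreated 3 h array of AML12 (-0.27, adjusted p = 0.018), and with all interactions of pairs of factors in the model (adjusted p = 0.019). Without the untreated AML12 array at 24 h, Serpinf2 was higher with v-erbA by 0.30 (adjusted p = 0.0041).

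The carriers and non-inhibitory members moved in both directions. Serpina7, the thyroxine-binding globulin of plasma, gave 195 and 437 units in RA-treated and untreated v-erbA cells at 24 h, against 57.2 and 82.5 units in AML12 cells. At 3 h signals were 338 and 328 units in v-erbA cells, against 63.9 and 69.5 units in AML12 cells. The lines did not overlap, 3 of the 4 AML12 arrays were below the pooled median, and the change was 1.92 ± 0.16 (limma adjusted p = 1.5e-05). Because Serpina7 entered the tests only through the line in which it was higher, that adjusted p is no independent support for the change.

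Serpinf1, the secreted pigment epithelium-derived factor, which limits vessel growth and inhibits no protease, had the largest fall. Its brighter probe set gave 258 and 179 units in RA-treated and untreated v-erbA cells at 24 h, against 618 and 689 units in AML12 cells. Its 3 h signals were 109 and 102 units in v-erbA cells, against 367 and 353 units in AML12 cells. Each line was higher at 24 h than at 3 h, and no v-erbA array reached the lowest AML12 array. The log2 change was -1.56 ± 0.09, or 2.94-fold lower (limma adjusted p = 2.3e-06).

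The other Serpinf1 probe set gave 108 and 75.1 units in RA-treated and untreated v-erbA cells at 24 h, against 278 and 345 units in AML12 cells. The values at 3 h were 41.6 and 52.2 units in v-erbA cells, against 192 and 181 units in AML12 cells, with the lines again apart. Serpinf1 and Serpinf2 are neighbours in the RefSeq order of protein-coding and Serpin genes, with no such gene between them. The Serpinf2 change given above did not pass.

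Serpinh1, the collagen chaperone of the endoplasmic reticulum, varied little. It gave 2755 and 2619 units in RA-treated and untreated v-erbA cells at 24 h, against 3058 and 2663 units in AML12 cells. The 3 h arrays gave 2273 and 2228 units in v-erbA cells, against 2707 and 2498 units in AML12 cells. The lines overlapped across times, and the change of -0.15 ± 0.04 (limma adjusted p = 0.013) was lost with the other probe set of the gene (-0.10, adjusted p = 0.20), with quantile normalization (adjusted p = 0.054) and without either RA array of 3 h (adjusted p 0.051 and 0.053).

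In clade B, 6 of 18 genes were tested, of which 5 were lower and 1 higher with v-erbA, against 27.0% and 26.5% of all genes. Serpinb9, the intracellular inhibitor of granzyme B, gave 1713 and 1147 units in RA-treated and untreated v-erbA cells at 24 h, against 3111 and 2248 units in AML12 cells. At 3 h signals were 1043 and 879 units in v-erbA cells, against 2935 and 2319 units in AML12 cells. The lines were apart, and in each line at each time the RA array was the higher of its pair. The change with v-erbA was -1.17 ± 0.10, or 2.25-fold lower (limma adjusted p = 1.9e-05).

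The other Serpinb9 probe set gave 387 and 281 units in RA-treated and untreated v-erbA cells at 24 h, against 927 and 574 units in AML12 cells. Its 3 h signals were 253 and 186 units in v-erbA cells, against 867 and 643 units in AML12 cells, the same order within each time. Serpinb9b, a close paralog, gave 947 and 753 units in RA-treated and untreated v-erbA cells at 24 h, against 1139 and 746 units in AML12 cells. The values at 3 h were 1049 and 906 units in v-erbA cells, against 1781 and 1511 units in AML12 cells.

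Serpinb9b was lower with v-erbA by -0.43 ± 0.12 (limma adjusted p = 0.013), in 3 of 4 pairs. The pair of untreated cells at 24 h differed by 0.01. The mean difference was -0.12 over the 24 h arrays and -0.74 over the 3 h arrays, and for Serpinb9 it was -0.91 and -1.43. A test of that difference between times gave 0.61 ± 0.13 for Serpinb9b (adjusted p = 0.22) and 0.52 ± 0.11 for Serpinb9 (adjusted p = 0.21), and neither passed.

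Serpinb6b gave 3078 and 2106 units in RA-treated and untreated v-erbA cells at 24 h, against 3081 and 2294 units in AML12 cells. The 3 h arrays gave 1765 and 1358 units in v-erbA cells, against 2390 and 1811 units in AML12 cells. The change with v-erbA was -0.24 ± 0.07 (limma adjusted p = 0.016), with a mean of -0.06 over the 24 h arrays and -0.42 over the 3 h arrays. The difference between times did not pass (0.36 ± 0.07, adjusted p = 0.21), and leaving out any of the 4 arrays of 3 h ended the v-erbA call (adjusted p 0.056 to 0.063). Human SERPINB6 is an inhibitor of cathepsin G, and whether mouse Serpinb6b shares that role was not tested.

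Serpinb6a gave 2083 and 2257 units in RA-treated and untreated v-erbA cells at 24 h, against 2589 and 2680 units in AML12 cells. At 3 h signals were 2641 and 2699 units in v-erbA cells, against 3088 and 3069 units in AML12 cells. It was lower with v-erbA within each time, by -0.24 ± 0.03 overall (limma adjusted p = 0.00037). Serpinb6e was the clade B gene that was higher with v-erbA (0.45 ± 0.07, adjusted p = 0.00048, 4 of 4 pairs), and its probe set is marked x.

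Serpinb8, whose human counterpart inhibits furin, was lower by -0.29 ± 0.09 (adjusted p = 0.026). The call was lost with its other probe set (-0.12, adjusted p = 0.41) and without the v-erbA array of RA at 24 h, untreated at 24 h or RA at 3 h, or the AML12 array of RA at 24 h or untreated at 3 h (adjusted p 0.052 to 0.096). Of the remaining members, Serpina11 was higher by 0.53 ± 0.11 (adjusted p = 0.0031), and Serpini1, neuroserpin, differed by 0.06 ± 0.10 (adjusted p = 0.66). In the order of protein-coding and Serpin genes, 28 clade A genes and pseudogenes form a run of neighbours. Its 4 tested genes, Serpina10, Serpina1b, Serpina1c and Serpina11, were all called higher with v-erbA, against 26.5% of all genes. Another 9 genes of the run were dim and not tested, and the rest had no probe set of their own here. Serpina1b and Serpina1c are close paralogs, so the run as a whole cannot be called higher. The probe sets of Serpina1b and Serpina10 are among those marked for shared probes.

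**Figure D3:**
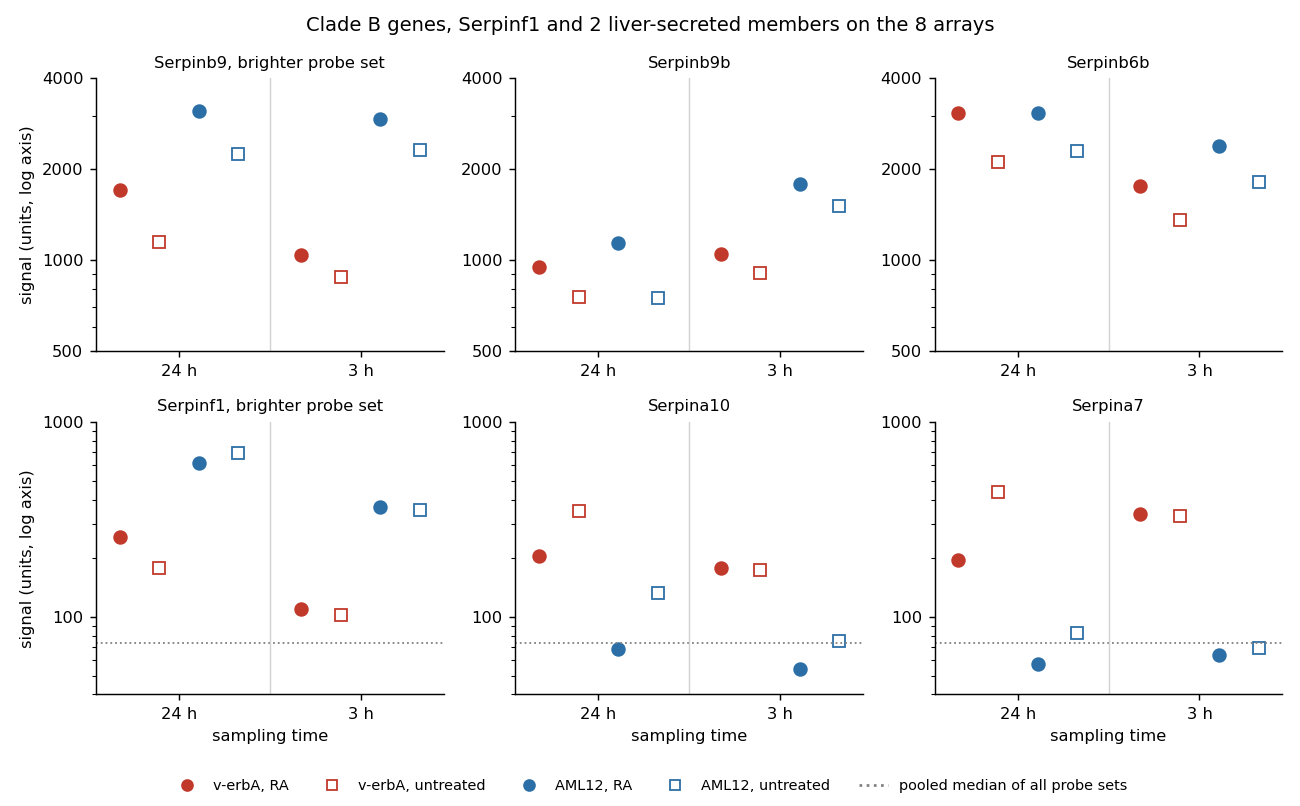
Signal of Serpinb9, Serpinb9b, Serpinb6b, Serpinf1, Serpina10 and Serpina7 on each array, in units on a log axis, at 24 h and 3 h, with symbols for line and treatment as given in the legend, 1 array a point. The upper 3 genes lie higher with RA in every pair, and Serpinf1 and Serpinb9 lie lower in all v-erbA arrays than in all AML12 arrays.

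RA over both lines and times raised 1 tested member, Serpinb6b, and lowered 0. Over all genes 0.825% were called higher and 0.367% lower, or 99 and 44 genes; with arrays centred on their medians 140 of 171 calls were higher. Serpinb6b was higher with RA by 0.43 ± 0.07, or 1.35-fold (limma adjusted p = 0.022), in 4 of 4 pairs that ranged from 0.37 to 0.54. The call was lost without the RA 24 h, untreated 24 h or untreated 3 h array of v-erbA, without the RA 3 h array of AML12, and in a fit with no mean-variance trend (adjusted p 0.068 to 0.13). The change stayed between 0.36 and 0.45 in those 5 settings.

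The other tested clade B genes of the same neighbourhood had smaller changes in the probe sets that stand for them. Serpinb9 differed by 0.40 ± 0.10 (limma adjusted p = 0.13) and Serpinb9b by 0.34 ± 0.12 (adjusted p = 0.34), both higher with RA in 4 of 4 pairs and neither past the threshold. Serpinb9 passed without the v-erbA array of RA at 3 h (0.51, adjusted p = 0.030). Its other probe set differed by 0.48 ± 0.11, no less than Serpinb6b, and did not pass (limma adjusted p = 0.090, each probe set tested as a row). Serpinb6a differed by -0.05 ± 0.03 and Serpinb6e by 0.01 ± 0.07. At an unadjusted p under 0.05 there were 9 members for RA, against 1242 of the 11997 genes. The median change over all 18 was -0.02, against 0.00 over all genes.

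No tested member passed a test of a difference in RA response between v-erbA and AML12 cells, for which 0% of all genes did; 1 member, Serpinb6e, and 199 of the 11997 genes had an unadjusted p under 0.05. The differences ran from -0.35 ± 0.21 for Serpina11 to 0.72 ± 0.56 for Serpina1c, and their errors leave room for unequal responses. In v-erbA cells alone 0 members and 0% of all genes passed for RA, with 4 members and 399 of all genes at an unadjusted p under 0.05. In AML12 cells alone 0 members passed, against 0.300% of all genes, with 6 members and 1089 of all genes at an unadjusted p under 0.05.

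At 24 h, RA lowered 4 of the 18 members and raised 0, against 0.684% of all genes called lower and 0.558% called higher. They were Serpina1c (-1.52 ± 0.22, limma adjusted p = 0.023), Serpina10 (-0.75 ± 0.12, adjusted p = 0.032), Serping1 (-0.59 ± 0.08, adjusted p = 0.019) and Serpina1b (-0.58 ± 0.10, adjusted p = 0.042). The paired difference at 24 h for Serpina1c was -0.97 in v-erbA cells and -2.06 in AML12 cells. For Serping1 it was -0.51 in v-erbA cells and -0.66 in AML12 cells, so that both lines fell.

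Serping1 gave 357 and 518 units in RA-treated and untreated v-erbA cells at 24 h, against 438 and 703 units in AML12 cells. Its 3 h signals were 304 and 276 units in v-erbA cells, against 378 and 395 units in AML12 cells. Untreated cells at 24 h were the highest of each line, as they were for Serpina1b, Serpina1c and Serpina10. Serpina7 had a difference of -0.75 ± 0.16 at 24 h that did not pass (adjusted p = 0.071). Of the members that were higher with RA, Serpinb6b differed by 0.48 ± 0.10 (adjusted p = 0.066) and Serpinb9 by 0.52 ± 0.14 (adjusted p = 0.12) at 24 h.

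None of the 4 calls at 24 h held in a fit with no mean-variance trend, where 0 members passed, and each depended on single arrays. Without the untreated AML12 array of 24 h, 0 members passed, with Serpina1c at -1.27 (adjusted p = 0.15), Serping1 at -0.55 (adjusted p = 0.10), Serpina10 at -0.75 (adjusted p = 0.17) and Serpina1b at -0.37 (adjusted p = 0.11). Without the RA 24 h array of AML12, Serpina1c alone of the 4 passed, with adjusted p values of 0.24 for Serpina10, 0.31 for Serpina1b and 0.16 for Serping1. Without the RA 3 h array of v-erbA, Serpina1c and Serping1 passed, and Serpina10 (adjusted p = 0.059) and Serpina1b (adjusted p = 0.071) did not. Serpina10 missed the threshold alone of the 4 without the RA 24 h array of v-erbA (adjusted p = 0.077) and without the untreated 24 h array of v-erbA (adjusted p = 0.050), an omission after which 6 members in all passed. In 3 omissions, of the untreated AML12 array of 3 h, the untreated v-erbA array of 3 h or the RA array of AML12 at 3 h, Serpina1b alone of the 4 missed the threshold (adjusted p 0.067 to 0.089).

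At 3 h, 0 members passed for RA, against 0.283% of all genes, and 1 member, Serpinb6b (0.38 ± 0.10, adjusted p = 0.32), and 718 of all genes had an unadjusted p under 0.05. Serpina1c differed by 0.01 ± 0.22, Serpina1b by 0.12 ± 0.10, Serpina10 by -0.17 ± 0.12 and Serping1 by 0.03 ± 0.08 at 3 h. The difference between the RA responses at 24 h and 3 h passed for 0 members and for 0.0167% of all genes, with 6 members and 912 of all genes at an unadjusted p under 0.05. It was -1.53 ± 0.32 for Serpina1c (adjusted p = 0.33), -0.70 ± 0.15 for Serpina1b (adjusted p = 0.34) and -0.62 ± 0.11 for Serping1 (adjusted p = 0.30). A response at 24 h that differs from that at 3 h was thus not established for any single member.

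**Figure D4:**
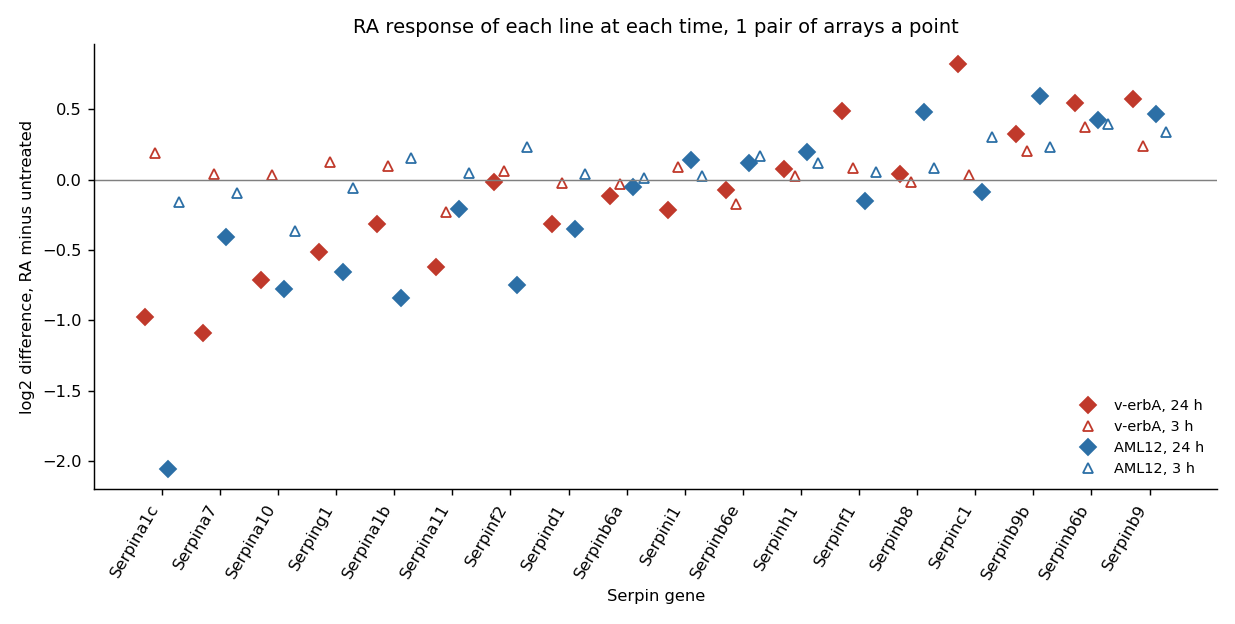
Log2 difference of RA minus untreated cells for the 18 tested Serpin genes, 1 point per pair of arrays, with filled diamonds for 24 h and open triangles for 3 h, red for v-erbA and blue for AML12 cells. Genes are ordered by the change at 24 h. Differences ran from -2.06 (Serpina1c, AML12, 24 h) to 0.82 (Serpinc1, v-erbA, 24 h), and Serpinb6b, Serpinb9, Serpinb9b and Serpinh1 lie above 0 in all 4 pairs.

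Between 24 h and 3 h, 9 of the 18 members were higher, 3 were lower and 6 did not pass, against 19.3% of all genes called higher and 15.0% called lower. With arrays centred on their medians the members' counts were the same, while over all genes 1818 of 4043 calls were higher, against 2315 higher and 1794 lower as deposited. Among clotting, fibrinolysis and complement inhibitors 4 of 5 tested genes were higher at 24 h. The other, Serpinc1, differed by 0.27 ± 0.18 (adjusted p = 0.26) and passed without the untreated v-erbA array of 24 h (0.50, adjusted p = 0.014). Serpinf2 gave 500 and 506 units in RA-treated and untreated v-erbA cells and 438 and 750 units in AML12 cells at 24 h, against 316 and 302 units in v-erbA cells and 261 and 219 units in AML12 cells at 3 h. All 24 h arrays were higher than all 3 h arrays for Serpinf2, and the change was 0.93 ± 0.16 (limma adjusted p = 0.0019).

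Serping1 was higher at 24 h by 0.52 ± 0.12 (adjusted p = 0.0078), Serpina10 by 0.52 ± 0.13 (adjusted p = 0.013) and Serpind1 by 0.47 ± 0.08 (adjusted p = 0.0021). The Serpina10 call was lost without the untreated v-erbA array of 24 h (0.44, adjusted p = 0.052). Of the antitrypsin paralogs, Serpina1b was higher by 0.62 ± 0.14 (adjusted p = 0.0076). Serpina1c was higher by 0.87 ± 0.29 (adjusted p = 0.047) in 3 of 4 pairs, a call lost in 9 of the settings tried (adjusted p 0.052 to 0.15). Those 9 include the omissions of each untreated array and of the v-erbA array of RA at 24 h, with changes of 0.59 to 0.88.

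Serpinf1 was higher at 24 h by 0.86 ± 0.09 (adjusted p = 0.00011), Serpinb6b by 0.53 ± 0.07 (adjusted p = 0.00041) and Serpinh1 by 0.19 ± 0.04 (adjusted p = 0.0059), each in 4 of 4 pairs. The 3 members lower at 24 h were all of clade B: Serpinb8 (-0.60 ± 0.09, adjusted p = 0.0013), Serpinb9b (-0.51 ± 0.12, adjusted p = 0.010) and Serpinb6a (-0.26 ± 0.03, adjusted p = 0.00042). Serpinb9 differed by 0.28 ± 0.10 (adjusted p = 0.058), and it passed without either untreated AML12 array (adjusted p 0.021 and 0.032). For a difference between the lines in the change over time 0 members passed, against 0.100% of all genes, with adjusted p values of at least 0.21 and with 4 members and 1076 of all genes at an unadjusted p under 0.05.

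Of 5 genes with another probe set that passed the same filter, the v-erbA change had the same sign in 5 of 5, and 3 of them passed with both probe sets: Serpina1b, Serpinb9 and Serpinf1. The time change had the same sign in 5 of 5 and passed in both for 4 of 4 called genes. The RA change had the same sign in 4 of 5, and for Serpinf1 it was 0.12 with the brighter probe set and -0.0064 with the other. Serpini1 had 2 further probe sets, between 1.01 and 51.0 units, below the pooled median on every array, and these were not set against its brightest one.

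A list of 42 proteases, receptors and cofactors that serpins act on or bind was followed for context. Of these 28 were tested, of which 4 were higher and 13 lower with v-erbA, against 26.5% and 27.0% of all genes. The median change of the list was -0.13, against 0.01 over all genes. F2, the precursor of the protease that antithrombin inhibits, was lower with v-erbA by -1.48 ± 0.13, and the C1 inhibitor targets C1s1 and C1ra were lower by -1.50 ± 0.12 and -0.92 ± 0.06. Hpn, a membrane protease, lay below the pooled median in v-erbA cells and was at least 4.37-fold lower. Those higher were Vtn (0.88 ± 0.19), which encodes vitronectin, Sort1 (0.49 ± 0.14), a sorting receptor, the urokinase receptor gene Plaur (0.32 ± 0.07) and Masp1 (0.24 ± 0.07), a protease of the lectin pathway that C1 inhibitor blocks.

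RA changed 0 of the 28 partner genes past the limma threshold, against 0.825% of all genes called higher and 0.367% called lower. Between 24 h and 3 h 11 were higher and 5 lower, against 19.3% and 15.0% of all genes, with a median of 0.13, against 0.03 over all genes. Tmprss2, a membrane protease, was at least 4.44-fold higher at 24 h, Vtn was higher by 0.74 ± 0.19, Tmprss6 by 0.72 ± 0.15 and Hpn by 0.69 ± 0.14. The contact factor gene F12 was at least 2.16-fold lower, Col1a1, a collagen that Serpinh1 folds, at least 1.32-fold lower, and Lrp8 was lower by -0.63 ± 0.12 and Sdc1 by -0.20 ± 0.04.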

How the data were processed

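Biotin-labelled total RNA was hybridised to Affymetrix arrays, as the labels' protocols state. The deposited values are the authors' signal intensity per probe set on a linear scale; how probes were summarized and arrays scaled is not given in the sources used here, and the deposited scaling was kept. Of 45037 probe sets, 1 with missing values was left out, 34944 named 1 gene in the platform annotation, 932 several and 9160 none; 34740 of the gene identifiers were found in the RefSeq table of GRCm38.p6. The probe set with the highest mean log2 value stood for a gene.

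Values were taken as log2(signal + 19.9), the offset being the 20th percentile of all values as deposited. Fits over 11997 genes used limma 3.58.1 in R 4.3.3 (additive model of line, treatment and time, 4 residual degrees of freedom; interaction models, 3), with a mean-variance trend and Benjamini-Hochberg adjustment over all genes. Where every array of the lower group lay below the pooled median of 73.5 units, a bound on the fold was taken from the higher group's mean over that median. Python 3.11.15 with matplotlib 3.10.9 drew the figures. Scripts were tested on simulated data. Members, roles and partner list were chosen with earlier results of these data known. Values on every array are given for members that passed with a log2 change of at least 1 in size, for antitrypsin and antichymotrypsin paralogs that passed the filter, and for members with a mean above 1000 units; those of Serping1, Serpinf2 and the shared probe sets were added after their values were seen. Other called members are given by their change, partners by up to 4 examples each way. Alternatives changed the offset, filter, scaling, probe set, variance trend, model terms and arrays. The number of arrays limits the precision.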

Additional observations from a re-analysis of the deposited data

Results flagged for a closer look

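Probe sets that name several Serpin genes were outside the tests. Of these, 2 differed between the lines, with signals above the pooled median on 8 and on 5 of the 8 arrays. The one that names Serpina1d and Serpina1a had a mean log2 difference of 2.18 between v-erbA and AML12 cells, with 4779 units on the lowest v-erbA array and 1970 units on the highest AML12 array. The one that names Serpina1e, Serpina1c and Serpina1b had a difference of 2.73, with 230 units on the lowest v-erbA array and 225 units on the highest AML12 array. Its other AML12 arrays lay under the pooled median, at 55.9 units with RA at 24 h and 37.3 and 27.9 units with and without RA at 3 h. RA minus untreated cells gave -0.68 and -1.04 for these probe sets at 24 h, against 0.02 and 0.19 at 3 h. Which paralogs bound to them was not tested. The probe set that names Serpinb9h, Serpinb9g, Serpinb9e and Serpinb9f stayed at or under 55.9 units.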

How the results depend on the processing

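No change of a member that had passed reversed its sign in any setting tried. Of the v-erbA calls 10 of 15 and of the time calls 10 of 12 were retained in all of the 18 settings; the others, and the arrays they rest on, are named with their values in the report. The single RA call, 1 member over both lines and times, became 0 without a mean-variance trend and 8 (3 higher, 5 lower) with all interactions of pairs of factors in the model, which leaves 1 residual degree of freedom. With 1 array left out it ranged from 0 to 2 members, the v-erbA count from 12 to 14 and the time count from 11 to 12. Alternatives for RA at 24 h were chosen after seeing the data: its 4 members became 0 without a mean-variance trend, 5 with arrays centred on their medians and 3 with quantile normalization, and ranged from 0 to 6 with 1 array left out. Causes were not tested. Without the filter on dim genes Serpina12 (0.86) and Serpina3i (0.60) passed for v-erbA and Serpinb11 (1.12) for time, at signals under the pooled median.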
